A study of Mus musculus with 4 samples.

Results

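Cohesin genes are the subject here: the 4 meiotic genes Rec8, Stag3, Smc1b and Rad21l and the 6 general genes Rad21, Smc3, Stag1, Stag2, Nipbl and Wapl, 10 of 21631 protein-coding genes on the autosomes and X. They were taken by name, and their regions of open chromatin were taken from ATAC-seq peak lists. ATAC-seq uses the Tn5 transposase to insert sequencing adapters into accessible DNA, and a peak is a stretch where insertions pile up. A peak was given to a gene when it lay in the gene or within 1 kb of it, and otherwise when the nearest end of a protein-coding gene within 100 kb was that gene's. This gave 29 of 44139 peaks in the Gata2cKO list and 36 of 49394 in the Gata2WT list.

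The libraries came from germ cells enriched with beads against the surface antigen SSEA1 from C57BL/6J female fetal ovaries at E14.5 (E for embryonic day), with about 10000 cells per library. Gata2cKO embryos had a floxed Gata2, the gene of a zinc finger transcription factor, removed by Prdm1-Cre; Prdm1 is switched on as the germ line is founded. Gata2WT embryos came from the same cross of Gata2flox/+ Prdm1-Cre males with Gata2flox/flox females, so by the cross each had a floxed allele from its mother. Whether Gata2WT embryos carried Cre, and how many embryos were pooled, is not given in the labels. The 2 samples of each genotype stand in 1 combined list, so there was no replicate error, no test between genotypes and no p-value between them. Intervals are 95% Wilson intervals and cover counting error only, and a site with no peak in a list did not reach the authors' cutoff in that pool, where it may still have been open.

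Cohesin is a ring of SMC proteins closed by a kleisin subunit, with a STAG subunit bound to the kleisin. It holds sister chromatids together and shapes chromatin loops in dividing and resting cells alike. Germ cells entering meiosis make special versions of several subunits: REC8 and RAD21L take the place of the kleisin RAD21, STAG3 that of STAG1 and STAG2, and SMC1B that of SMC1A, while SMC3 is part of both kinds of ring. NIPBL loads cohesin onto DNA and WAPL releases it. In the fetal ovary female germ cells enter meiosis around the stage sampled here, and the meiotic subunits build the chromosome axes on which homologs pair.

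RefSeq promoter windows (GRCm38.p6), from 250 bases before to 50 after a listed start, were at hand for 7 of the 10 genes: Rec8, Stag3, Smc1b, Rad21l, Smc3, Stag1 and Wapl. Those of the 4 meiotic genes and of Smc3, the subunit common to both rings, are shown. Of these 5, 4 lie wholly under a peak in both lists and the 1 of Rad21l under none. The windows of Stag1 and Wapl, which are not shown, also lie wholly under a peak in both lists. Each line gives the 250 bases before the listed start, 5′ to 3′ on the strand of the gene. Capitals mark matches on either strand to the E2F core TCCCGC, the E-box CACGTG and GATA preceded by A or T and followed by A or G; no match to the STRA8 motif CNCCTCAG was found in the 7 windows, and 7.94% of all windows held one.
Rec8 (chr14:55617916-55618165, plus strand): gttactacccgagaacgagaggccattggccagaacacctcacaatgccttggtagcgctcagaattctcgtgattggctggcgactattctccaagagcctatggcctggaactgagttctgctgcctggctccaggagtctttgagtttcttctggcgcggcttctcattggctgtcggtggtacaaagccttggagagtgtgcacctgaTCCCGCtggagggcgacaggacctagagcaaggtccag
Stag3 (chr5:138280259-138280508, plus strand): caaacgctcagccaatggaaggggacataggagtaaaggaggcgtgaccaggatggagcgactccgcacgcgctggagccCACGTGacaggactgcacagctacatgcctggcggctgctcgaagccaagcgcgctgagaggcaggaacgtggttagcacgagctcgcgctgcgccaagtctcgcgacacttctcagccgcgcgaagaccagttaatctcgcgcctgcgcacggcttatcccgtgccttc
Smc1b (chr15:85131958-85132207, minus strand): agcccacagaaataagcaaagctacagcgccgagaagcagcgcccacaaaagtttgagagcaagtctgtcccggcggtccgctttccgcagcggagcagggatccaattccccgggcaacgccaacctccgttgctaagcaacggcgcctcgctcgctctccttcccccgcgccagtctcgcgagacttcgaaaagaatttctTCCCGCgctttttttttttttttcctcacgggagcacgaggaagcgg
Rad21l (chr2:151668534-151668783, minus strand): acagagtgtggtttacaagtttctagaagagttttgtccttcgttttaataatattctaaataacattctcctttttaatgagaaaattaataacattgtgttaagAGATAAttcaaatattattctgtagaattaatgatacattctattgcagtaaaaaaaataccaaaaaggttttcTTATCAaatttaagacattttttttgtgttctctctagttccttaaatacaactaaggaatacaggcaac
Smc3 (chr19:53600146-53600395, plus strand): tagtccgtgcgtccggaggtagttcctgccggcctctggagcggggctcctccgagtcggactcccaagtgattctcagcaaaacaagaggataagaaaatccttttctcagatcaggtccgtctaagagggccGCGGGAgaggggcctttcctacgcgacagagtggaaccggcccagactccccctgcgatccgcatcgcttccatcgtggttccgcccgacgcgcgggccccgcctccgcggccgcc

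The strongest peak of each of the 10 cohesin genes was found in both lists, where 97.3% of the coding genes with a peak in or within 1 kb of them had their strongest such peak shared in the Gata2cKO list and 95.8% in the Gata2WT list. The 10 are thus near the background and are given as a description. The strength used here is the −log10 q of the authors' peak caller, which grows with the pile-up of fragments at the summit over the local background and is scaled within a list alone; values of both lists stand side by side without a change being read from them. Over the meiotic genes the strongest peaks had a −log10 q of 20.6 to 88.1 in Gata2cKO and of 35.6 to 105.1 in Gata2WT. Over the general genes it ran from 30.9 to 82.2 in Gata2cKO and from 42.3 to 108.4 in Gata2WT. The ranges of the 2 groups of genes overlapped in both lists. The median peak of a whole list had 7.14 in Gata2cKO and 6.72 in Gata2WT. The 10 pairs of strongest peaks covered 69.4% to 100% of the Gata2cKO peak and 81.6% to 100% of the Gata2WT peak, and their summits lay 1 to 174 bp apart, with a median of 12.5 bp.

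**Figure D1:**
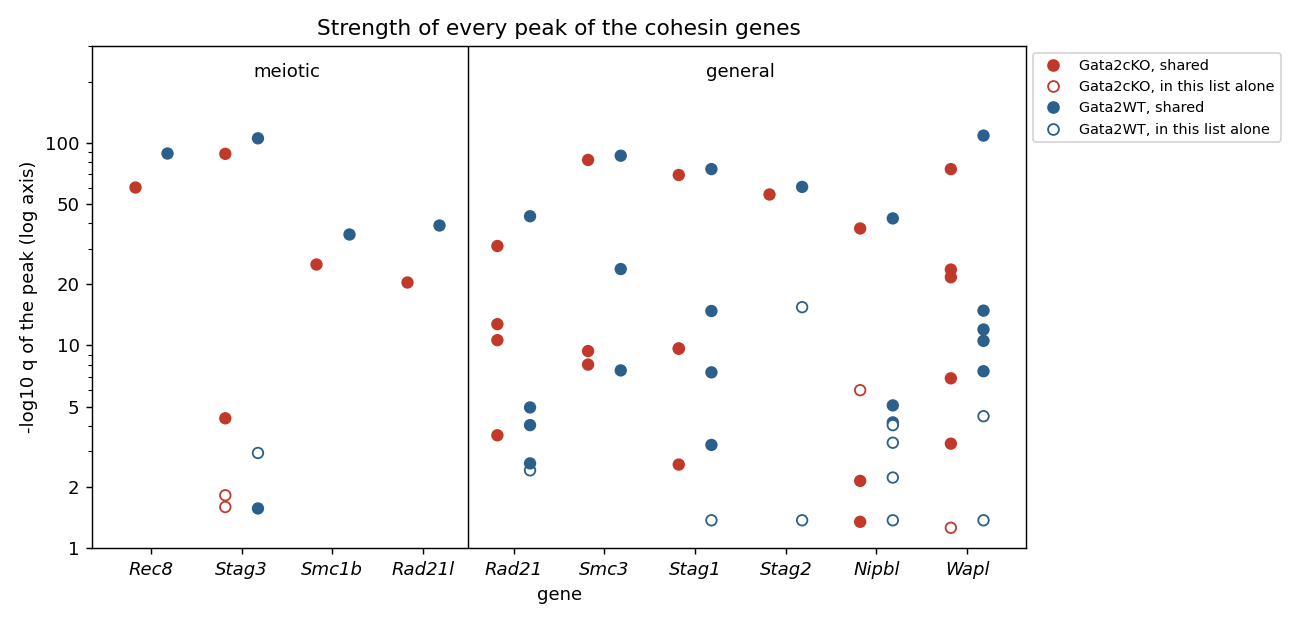
Strength of every peak given to the 10 cohesin genes, as −log10 q on a log axis, with Gata2cKO to the left of Gata2WT for each gene; filled points overlap a peak of the other list and open points do not. Each gene has at least 1 shared peak above 20 in each list, and all open points but 2 lie below 5.

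Among the kleisins of meiosis, Rec8 had a single peak. It lay at the gene's end on chromosome 14, 55617475 to 55618366 in Gata2cKO and 55617392 to 55618359 in Gata2WT. Its −log10 q was 60.7 in Gata2cKO and 88.8 in Gata2WT, its fold enrichment over the local background was 9.94 in Gata2cKO and 11.5 in Gata2WT, and its summit held 96 fragments in Gata2cKO and 129 in Gata2WT. Within its own list it was stronger than 92.8% of Gata2cKO peaks and 96.1% of Gata2WT peaks. The summits lay 237 bp before the listed start in Gata2cKO and 249 bp before it in Gata2WT. No other peak was given to Rec8, whose span of 7.39 kb is the shortest of the 10.

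Rad21l, the other meiotic kleisin, also had 1 peak in each list, and it was the weakest of the 10 strongest peaks in Gata2cKO. The peak ran from 151669946 to 151670950 on chromosome 2 in Gata2cKO and from 151669970 to 151671118 in Gata2WT. It had a −log10 q of 20.6 in Gata2cKO and of 39.1 in Gata2WT, with 33 fragments at the summit in Gata2cKO and 54 in Gata2WT. In Gata2WT the peak of Smc1b was weaker still. The Rad21l peak covered the outer end of the annotated gene, at 151670622, which on the minus strand is the 5′ end of the span. It stopped 1413 bp (Gata2cKO) and 1437 bp (Gata2WT) upstream of the start listed in the promoter table. That listed start lies inside the annotated span, so the window printed for Rad21l lay outside every peak and is not the window of the 5′ outer end.

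Stag3, the STAG subunit of meiotic cohesin, was the 1 meiotic gene whose list of peaks differed between genotypes, and the difference lay in weak peaks. Its strongest peak covered the listed start on chromosome 5, at 138279757 to 138280752 in Gata2cKO and 138279765 to 138280847 in Gata2WT. The −log10 q there was 88.1 in Gata2cKO, the highest of the 10 genes in that list, and 105.1 in Gata2WT, and the summit held 144 fragments in Gata2cKO and 174 in Gata2WT on a high local background of 13.8 fragments in Gata2cKO and 17.2 in Gata2WT. The site is also a gene end of Gpc2, a glypican gene next to Stag3, so the peak cannot be assigned to Stag3 alone. By the outer ends of the annotated span, by contrast, Stag3 had a gene-end peak in Gata2cKO alone, as 1.3% of coding genes did. That peak, 138272485 to 138272845, had a −log10 q of 1.82 with 12 fragments at its summit, lay upstream of the listed start and 0.212 kb from an end of Gal3st4, another coding gene. The second cKO-only peak, 138304046 to 138304438 inside the gene, had a −log10 q of 1.597.

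Downstream of Stag3 both lists held a weak site, at 138323388 to 138323856 in Gata2cKO (−log10 q of 4.37) and at 138323551 to 138324097 in Gata2WT (1.57). The WT-only peak of the gene, 138324621 to 138324889 with 2.95, lay 765 bp from the nearest Gata2cKO peak. Stag3 thus had 4 peaks in Gata2cKO, 2 of them cKO-only, and 3 in Gata2WT, 1 of them WT-only. With a −log10 q of at least 5 asked in both lists, 1 peak was left in each, the shared one at the listed start.

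Smc1b, the SMC subunit of meiotic cohesin, had 1 shared peak at its listed start on chromosome 15, 85131551 to 85132398 in Gata2cKO and 85131535 to 85132474 in Gata2WT. It had a −log10 q of 25.2 in Gata2cKO and of 35.6 in Gata2WT, with 42 fragments at the summit in Gata2cKO and 54 in Gata2WT. The summit lay 63 bp before the listed start in Gata2cKO and 12 bp after it in Gata2WT. The same peak covered an end of Ribc2, the neighbouring gene, and no peak was given to Smc1b elsewhere over its 67.3 kb.

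**Figure D2:**
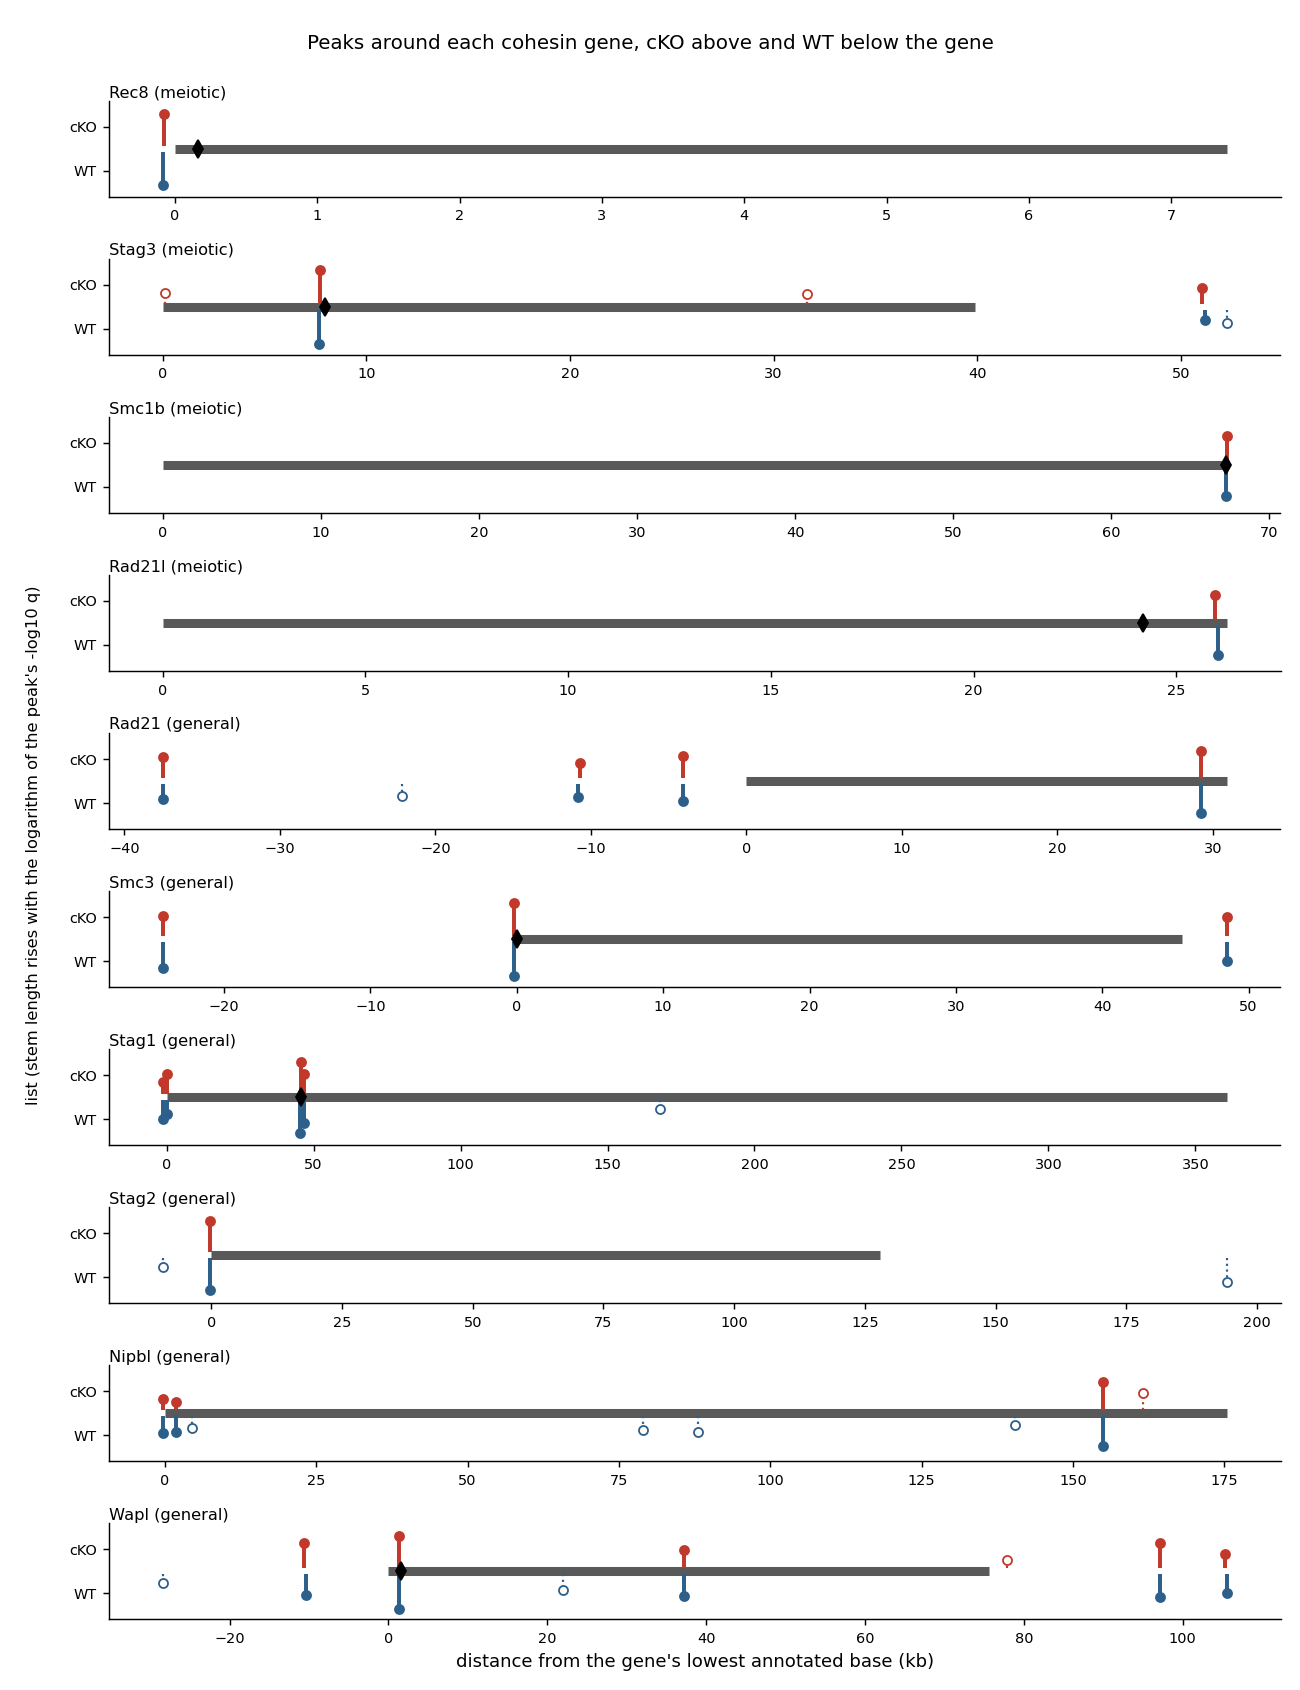
Position of every peak by distance from the gene's lowest annotated base, in kb, with the gene as a grey bar, Gata2cKO stems above and Gata2WT stems below it (stem length rises with the logarithm of the −log10 q), and a diamond at the RefSeq listed start where one was at hand. Filled ends are shared peaks and open ends single-list peaks; Rec8, Smc1b and Rad21l have 1 stem in each list, while the WT-only peaks of Nipbl spread over the gene body.

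The general genes had 1 to 6 peaks each in Gata2cKO and 3 to 7 in Gata2WT, and the meiotic genes 1 each in both lists apart from Stag3. The general genes span 30.9 to 360.8 kb and the meiotic genes 7.39 to 67.3 kb, and the part of gene span in these counts was not tested. Smc3 had its strongest at the listed start on chromosome 19, 53599759 to 53601154 in Gata2cKO (−log10 q of 82.2) and 53599837 to 53601218 in Gata2WT (86.3). Its other 2 sites, 24.0 and 2.93 kb outside the gene in Gata2cKO, were also shared, with a −log10 q of 9.39 and 8.05 in Gata2cKO and of 23.8 and 7.53 in Gata2WT. All 3 sites of Smc3 were thus in both lists.

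Stag2, one of the STAG subunits of general cohesin, had a shared gene-end peak on the X chromosome at 42148494 to 42150075 in Gata2cKO and 42148675 to 42149772 in Gata2WT. It had a −log10 q of 55.8 in Gata2cKO and of 60.5 in Gata2WT, and the summits lay 2 bp apart. Stag1, its homolog, had its strongest peak at the listed start, well inside the annotated span (44.99 kb from its end in Gata2cKO and 44.7 kb in Gata2WT), at 100642701 to 100643804 on chromosome 9 in Gata2cKO (69.3) and 100642454 to 100643799 in Gata2WT (74.1). A second shared peak lay beside it, with 9.63 in Gata2cKO and 14.8 in Gata2WT. At the outer end of Stag1 a pair of weaker sites was shared: 1 had 9.68 in Gata2cKO and 3.23 in Gata2WT, and the other 2.59 in Gata2cKO and 7.37 in Gata2WT.

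Rad21, the general kleisin, had its strongest peak near its upper end on chromosome 15, 51990721 to 51992368 in Gata2cKO (−log10 q of 30.9) and 51990708 to 51992368 in Gata2WT (43.4). The same peak covered an end of Gm52217, another coding gene, so it cannot be assigned to Rad21 alone. Another 3 shared sites lay outside Rad21, with a −log10 q of 12.7, 10.6 and 3.61 in Gata2cKO and of 4.95, 4.05 and 2.62 in Gata2WT at the same sites. Nipbl, the loader, had its strongest peak inside the gene on chromosome 15, 8443632 to 8445893 in Gata2cKO (37.8) and 8443591 to 8445787 in Gata2WT (42.3), at or beside an end of the coding model LOC102634078; the summits lay 1 bp apart. Wapl, the release factor, had its strongest peak at the listed start on chromosome 14, 34673372 to 34674737 in Gata2cKO (74.1) and 34673358 to 34674674 in Gata2WT (108.4), the highest of the 10 genes in Gata2WT. Wapl also had 3 shared sites outside the gene, with a −log10 q of 23.7, 21.7 and 3.28 in Gata2cKO and of 14.8, 10.5 and 7.46 in Gata2WT, and 1 inside it with 6.89 in Gata2cKO and 12.0 in Gata2WT. The outside sites with 23.7 and 3.28 lay 20.3 and 29.7 kb from Wapl in Gata2cKO. They were in or within 1 kb of the noncoding genes A930038B10Rik and Gm30969, and were given to Wapl by distance alone.

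The 1 kb window around the outer ends decided some of these labels. The strongest peak of Wapl lay just inside it, 0.993 kb from the annotated end in Gata2cKO and 0.979 kb in Gata2WT, and that of Rad21 just outside it, at 1.17 kb in both lists. One weak site of Stag1 lay on both sides, at 1.146 kb in Gata2cKO and 0.96 kb in Gata2WT. By this window 8 of the 10 genes had a gene-end peak, at either outer end, in both lists (3 of 4 meiotic and 5 of 6 general genes, against 62.8% of all coding genes). Nipbl and Stag1 were counted by weaker peaks at an outer end, since their strongest peaks lay inside the gene. The Nipbl end peak had a −log10 q of 2.15 in Gata2cKO and of 5.06 in Gata2WT. Stag3 had a gene-end peak in Gata2cKO alone, Rad21 in neither list (33.6% of coding genes), and no cohesin gene in Gata2WT alone (2.29%). By listed starts, 6 of the 7 genes had a peak within 1 kb in both lists, against 64.3% of 17274 coding genes with a listed start, and Rad21l in neither, as 33.0% of these genes. No cohesin gene had a peak at its listed start in Gata2cKO alone (0.845%) or in Gata2WT alone (1.84%).

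In both groups of genes the share of peaks found in 1 list alone had an interval that held the share of the whole list. At the meiotic genes 2 of 7 Gata2cKO peaks were cKO-only (28.6%, 8.22 to 64.1) and 1 of 6 Gata2WT peaks was WT-only (16.7%, 3.01 to 56.4), all 3 at Stag3. At the general genes 2 of 22 Gata2cKO peaks were cKO-only (9.09%, 2.53 to 27.8) and 10 of 30 Gata2WT peaks were WT-only (33.3%, 19.2 to 51.2). Over all peaks 19.7% of the Gata2cKO list and 28.5% of the Gata2WT list met no peak of the other. When the Gata2WT list was cut to the 44139 peaks of the Gata2cKO list, 22.8% of all Gata2cKO and 23.1% of all Gata2WT peaks were single. The general genes then had 2 cKO-only and 6 WT-only peaks. The meiotic genes had 3 cKO-only among 7 peaks and 1 WT-only among 5, as a weak shared Stag3 site left the Gata2WT list. When a −log10 q of at least 5 was asked in both lists, the general genes had 4 cKO-only and 4 WT-only among 16 peaks per list. Over all peaks, 3953 of 27235 Gata2cKO and 5894 of 29160 Gata2WT peaks were then single. Under that cutoff a peak also counts as single when its partner in the other list fell below 5. This held for the cKO-only peaks then found at Rad21 and Stag1, and for the WT-only ones at Stag1, Nipbl and Wapl.

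**Figure D3:**
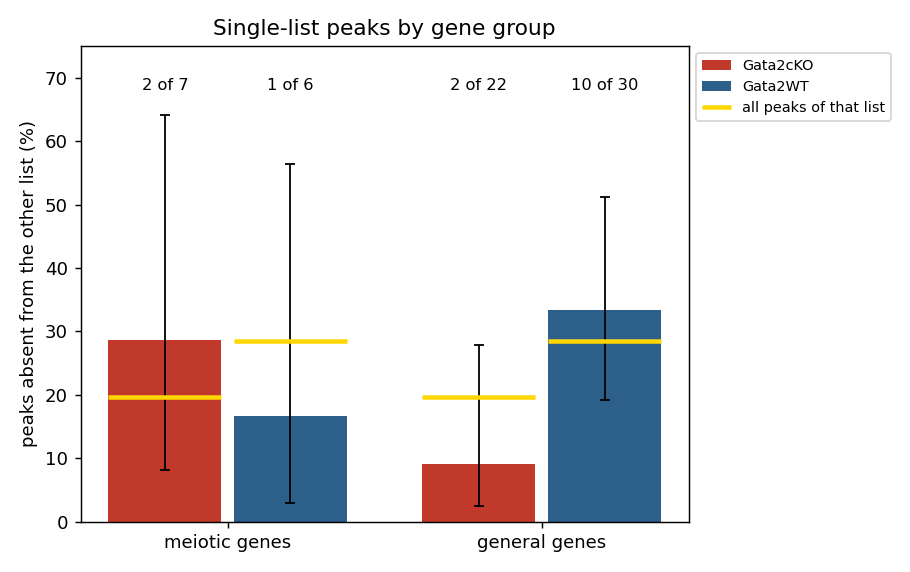
Percent of the peaks of each gene group that overlap no peak of the other list, Gata2cKO left of Gata2WT; error bars are 95% Wilson intervals and gold lines mark the share over all peaks of that list. The counts are 2 of 7 in Gata2cKO and 1 of 6 in Gata2WT for the meiotic genes, and 2 of 22 in Gata2cKO and 10 of 30 in Gata2WT for the general genes, and every interval crosses its gold line.

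The 10 WT-only peaks of the general genes lay at 5 genes, 6 inside gene bodies and 4 outside. Nipbl had 4 of them, all inside the gene, at 8294198 to 8294675 (−log10 q of 2.231), 8368515 to 8368980 (3.31), 8377606 to 8377976 (4.05) and 8430235 to 8430574 (1.37). Wapl had 1 outside the gene at 34643843 to 34644101 (1.37) and 1 inside it at 34693930 to 34694528 (4.48). Stag2 had 2, both outside, of which the weaker lay at 42139753 to 42140166 (1.37). Rad21 had 1 outside at 51940335 to 51940687 (2.42), and Stag1 had 1 inside at 100765579 to 100765966 (1.37). Apart from the second Stag2 peak, all of them were thus weaker than the median Gata2WT peak. Of the 10, 4 held just 8 fragments at the summit, the smallest pile-up with which a peak was called on the genome background in either list, and these 4 (1 each at Stag1, Stag2, Nipbl and Wapl) were the ones lost with equal list lengths. The 2 cKO-only peaks of the general genes lay inside Nipbl at 8451201 to 8451632, with a −log10 q of 6.02, and 2.26 kb outside Wapl at 34750246 to 34750588, with 1.26.

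One single-list peak was stronger than all the others of the cohesin genes. It lay on the X chromosome at 42342997 to 42344056, 65.8 kb outside Stag2, and was WT-only. It had a −log10 q of 15.4, a fold enrichment of 7.80, a width of 1060 bp and 25 fragments at its summit. The nearest Gata2cKO peak was 146 kb away, and no annotated gene, coding or not, lay within 1 kb of it. Of 14073 Gata2cKO peaks that reached a −log10 q of 15, 23 were cKO-only (0.163%), and of 15318 such Gata2WT peaks 50 were WT-only (0.326%). The peak was given to Stag2 by distance alone, and no link to the gene was measured.

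The promoter windows of Rad21l and Rec8 stood below the other 5 in both GC content and CpG ratio (the plot of GC content against CpG). The window of Rad21l lay under no peak, at a listed start inside the annotated span. It does not describe the 5′ outer end of Rad21l, where the shared peak lay. The CpG count over that expected from the C and G content was 1.06 for Stag3 and 1.08 for Smc1b, against 1.01 for Smc3, 1.06 for Stag1 and 1.09 for Wapl, all above at least 94.5% of 32851 windows. These windows, also used for the motif shares, came from 27025 genes, some with several windows, and were not limited to coding genes. No comparison with windows of coding genes alone was made. It was 0.716 for Rec8 and 0.317 for Rad21l, where the median window had 0.384. GC content was 58.3% for Rec8, 61.3% for Stag3, 60.0% for Smc1b and 29.0% for Rad21l, and ran from 65.0% to 73.7% over Smc3, Wapl and Stag1.

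The E2F core TCCCGC occurred in the windows of Rec8, Stag3, Smc1b, Smc3 and Stag1, 5 of 7, and in 20.0% of all windows. These 5 windows had a GC content of 58.3% to 73.7%, where the median window had 52.7%. The share over all windows was not matched for GC or CpG content or limited to coding genes, so an excess of this CpG-holding string was not tested. E2F6, a repressor of the E2F family, is known to keep Stag3 and Smc1b silent in cells outside the germ line. Counted from the first base of the transcript as 0, the match began at −38 in Rec8, at −47 in Smc1b, at −15 in Stag1 and at −2 in Stag3, where it runs past the start and so is not in capitals above; Smc3 had matches at −116 and 29. The E-box CACGTG occurred in Stag3 alone, at −170, and in 7.15% of all windows. A GATA form occurred in Rad21l alone, with matches at −144 and −70, and in 29.8% of all windows. The Rad21l window, at the listed start inside the annotated span, lay under no peak of either list. The CCAAT box bound by NFY was in 6 of 7 windows, all but Smc3, and in 37.4% of all windows, while GCGCATGC (NRF1) and TGACGTCA (CRE) were in none of the 7 and in 2.71% and 1.79% of all windows. A match is a string of letters and not a measured binding site.

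**Figure D4:**
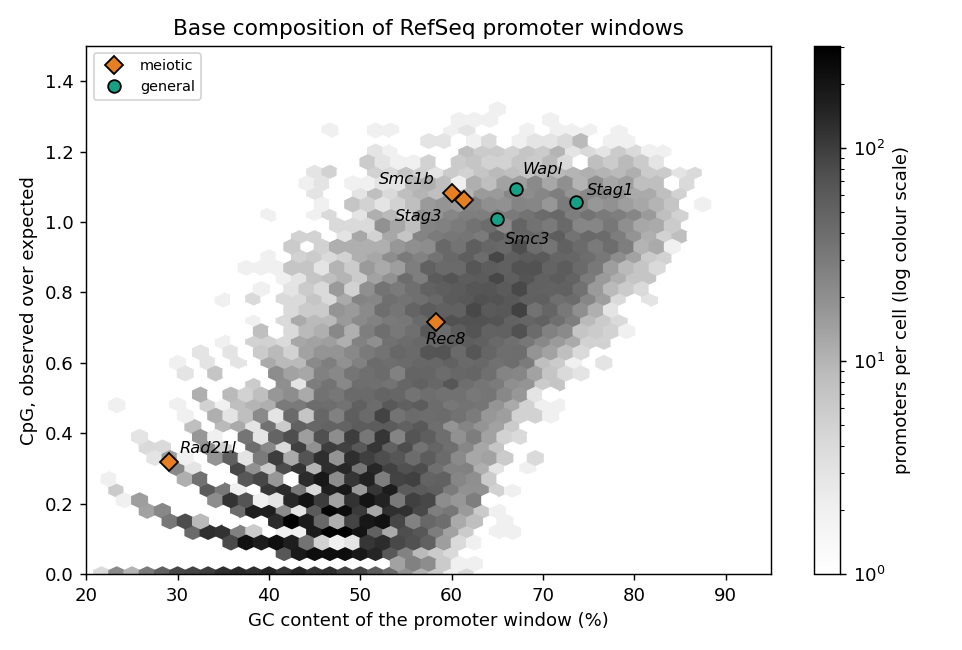
GC content in percent against observed over expected CpG for the 300-base RefSeq promoter windows of 3 general genes (circles) and 4 meiotic genes (diamonds), over the density of all 32851 windows in grey. Stag3 and Smc1b lie with the general genes at ratios above 1, Rec8 lies lower at 0.716 and Rad21l apart at a GC content of 29.0%. The Rad21l window is that of a listed start inside the annotated span, not of the gene's 5′ outer end.

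Most other genes that build or handle cohesin also had a peak within 1 kb of an outer end in both lists. Of 16 genes of the pathway, 13 had a gene-end peak in Gata2cKO and Gata2WT alike, against 62.8% of coding genes, 3 in neither and none in 1 list alone. Smc1a, whose product SMC1B replaces in meiosis, had its strongest gene-end peak at a −log10 q of 107.3 in Gata2cKO and 120.6 in Gata2WT. Mau2, the partner of NIPBL in loading, had 79.95 in Gata2cKO and 109.8 in Gata2WT, and Esco2, which acetylates SMC3, had 82.4 in Gata2cKO and 81.7 in Gata2WT. Of the cofactors that sit on the ring with WAPL, Pds5a had 40.1 in Gata2cKO and 36.5 in Gata2WT, and Pds5b had 78.8 in Gata2cKO and 90.05 in Gata2WT. The genes with none were Sgo1 and Sgo2a, of the shugoshins that protect centromeric cohesin, and Meikin, a kinetochore protein of meiosis; Sgo1 had 1 and Sgo2a 2 peaks inside the gene in each list, and Meikin had none. Of the peaks given to the pathway genes, 3 of 29 were cKO-only (10.3%, 3.58 to 26.4) and 6 of 31 WT-only (19.4%, 9.19 to 36.3), and both intervals hold the share over all peaks, 19.7% for cKO-only and 28.5% for WT-only.

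The genome background, the lowest local background of a list, was 2.01 fragments in Gata2cKO and 2.19 in Gata2WT, and Gata2WT had the longer list; the part of depth in the weak single-list peaks was not tested. Gata2 itself had a peak within 1 kb of an end in Gata2WT alone (−log10 q of 4.27), which does not check the genotypes because the labels do not say which part was deleted. Among germ cell marker genes, the ends of 7 of 8 were open in both lists and those of 1 only in Gata2WT. For supporting and stromal cells these numbers were 3 and 2 of 8, with 3 open in neither list, and for blood and endothelium 4 of 8 were open in both and 4 in neither. Over all coding genes 62.8% were open in both, 2.29% in Gata2WT alone and 33.6% in neither. A gene-end peak does not show that a gene is expressed, and the part of other cell types in these peaks was not tested.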

How the data were processed

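ATAC-seq peaks from 4 samples in 2 groups of 2 were used, as the 1 combined MACS2 list per genotype that the authors deposited. The submitters' processing notes name MACS2 2.2.6 and bedtools 2.29.2 beside Bowtie2 2.3.5.1, Trimmomatic 0.39, Picard 2.23.0 and SAMtools, and the build mm10 (GRCm38). Of parameters, the Tn5 read shift and the way replicates were combined, the sources used here give nothing. The deposited fold enrichment is a ratio of summit pile-up to local background with 1 fragment added to each, the deposited −log10 p and −log10 q follow from the same pile-up, and the deposited score restates the p. In both lists the smallest −log10 p was 3.00. None of these is scaled between lists.

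Rows with the same interval were merged to 1 peak with its strongest summit, on the 19 autosomes and X. Peaks that overlapped by 1 bp or more were shared. Distances ran from the peak's interval to the first or last base of a gene in the RefSeq table (GRCm38.p6), which holds no strand or exons; listed starts and strands came from the RefSeq promoter table. Summit pile-ups were solved from fold enrichment and −log10 p, and came out whole, within 0.001 in −log10 p, for 99.9955% of Gata2cKO peaks and 99.996% of Gata2WT peaks. A fragment is the unit that was piled up; read totals were not analysed here. Work was done in Python 3.11.15 with pandas 2.3.3 and scipy 1.17.1, and overlap, gene ends and pile-ups were checked on simulated data. The rule for named genes takes all 10 cohesin genes with their strongest and single-list peaks, and 6 pathway genes; Sgo1 and Meikin were named after their values were seen. The alternatives covered the overlap rule, threshold, list length, windows, reach and merging. Genes and lists were chosen with earlier results of these data known.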

Additional observations from a re-analysis of the deposited data

How the results depend on the processing

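Of 147 values of 28 counts over gene groups under other settings, 132 stayed within 1.5 times the reported count. Some of these are counts of 0 that stayed 0. With a −log10 q of at least 5 in both lists, the meiotic genes had 4 peaks in Gata2cKO, with 0 cKO-only and 0 WT-only, and 0 of them had a gene-end peak in Gata2cKO alone and 1 in neither list. The general genes then had 16 Gata2WT peaks, 4 cKO-only and 4 WT-only, and 1 (Nipbl) had a gene-end peak in Gata2WT alone. Some of these single-list peaks, and that gene-end peak of Nipbl, overlapped a peak of the other list that fell below 5. Equal list lengths left 6 WT-only peaks at the general genes, by construction of a shorter list. A reciprocal overlap of 50% gave them 5 cKO-only peaks, and rows left unmerged gave 35 peaks in Gata2cKO. The number of general genes with a gene-end peak in neither list was 2 with a window of 500 bp, 0 with 2 kb and 2 with distances from the summit. Of 320 values for single genes, 285 stayed within 1.5 times. No paired analysis was possible because each genotype has 1 combined list without values per replicate, and for the same reason no replicate could be left out. Read totals were not analysed here, and the part of depth in weak peaks was not tested.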
